A study of Homo sapiens with 6 samples.

Results

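Solute carriers are membrane proteins that move nutrients, ions and metabolites across the plasma membrane and the membranes of organelles. The genes described here are the 26 rows of the deposited table whose name follows the SLC pattern (SLC, a family number, A and a member number, with SLCO names included), without SLC3A2 and SLC7A11. They were chosen by name out of 1877 genes in the table, with earlier results of these data known. Every gene in the table had been selected by its authors on its measured change. The other 6 rows that start with SLC are the 2 genes just named, which fit the pattern, and 4 that do not: SLC35B4, SLC35F1, the antisense RNA SLC9A3-AS1 and the pseudogene SLC2A3P1. The cells were LP-1, a human line established from multiple myeloma, grown in RPMI-1640 with 15% serum. In 3 libraries, labelled RNF5 KD, the ubiquitin ligase gene RNF5 was depleted with short-hairpin RNA, and 3 libraries labelled Ctrl carried a non-target control. How many hairpins were used, the interval before harvest, and whether the libraries came from different cultures were not given in the sources used here, so p-values measure the spread between these libraries, which may be technical.

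Carriers of the SLC25 family sit in the inner mitochondrial membrane and exchange metabolites between the cytosol and the matrix. Members of the SLC16 family are best known for moving lactate and other monocarboxylates with protons, although some carry aromatic amino acids or have no settled substrate. Plasma cells and myeloma cells secrete large amounts of protein and depend on amino acid and sugar uptake. RNF5 itself is a membrane-anchored ligase of the endoplasmic reticulum, and the glutamine carriers SLC1A5 and SLC38A2 have been reported as proteins that it marks for degradation.

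The table holds only genes that its authors had selected as changed (absolute log2 fold change of at least 1 and adjusted p under 0.05 in the authors' deposited table), so every SLC gene in it had already been called changed, and carriers outside it, SLC1A5 and SLC38A2 among them, have no value here. RNF5 was at 95.40, 81.35 and 88.44 in the knockdown libraries and stood at 5.90% of its control mean. Among 598 listed genes whose mean reached 5, control library 3 had the smallest control value in 428, and it did so in 9 of the 14 SLC genes abundant enough to test. Among the knockdown libraries, library 1 had the smallest value in 332 of them. Of 10 plasma cell markers only SDC1 and ITGB7 were in the table, so the labelled cell type could not be checked further. Both were higher after knockdown, SDC1 with 35.5 ± 1.16 against 12.1 ± 2.66 and ITGB7 with 1708 ± 45.8 against 351 ± 92.5. None of 29 markers of T, NK, myeloid, erythroid cells and platelets was listed, and 1 each of 9 stromal and 8 epithelial markers was. The stromal one was COL1A1, summing to between 0.07 and 0.44 in the knockdown and between 0.47 and 0.72 in the control libraries, and the epithelial one was CLDN4, between 1.29 and 1.48 and between 1.85 and 3.17. The table holds only genes selected as changed, so absence from it does not show that a cell type was absent. The lists also do not hold every gene of these cell types. HBD and TIGIT were in the table and rose (log2 changes of 1.68 and 1.01), and HAVCR2 and SPARC fell (-1.12 and -3.94). The part of any of these genes in the results was not tested.

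The 26 SLC genes were 7.56% of the 344 protein-coding genes annotated under the same name pattern, against 6.36% of all 19951 protein-coding genes. The authors' deposited table gives 12 of the 26 as higher after knockdown and 14 as lower (49.2% and 50.8% of all its genes). All 26 are protein-coding, and of the 1268 protein-coding genes listed 516 were higher and 752 lower. The genes listed as higher and those listed as lower differed in level, on the authors' scale, which may or may not be per length. The larger of the 2 group means had a median of 8.39 for the genes listed as higher and of 0.495 for those listed as lower, against 3.57 and 2.20 over all listed genes. It was below 1 in 9 of the 14 genes listed as lower and in none of the 12 listed as higher. Over all listed genes that share was 33.7% of the lower and 16.7% of the higher ones.

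To be tested, a gene needed at least 3 libraries with a value of 1 or above. It was met by 14 SLC genes, 11 of them listed as higher and 3 as lower. Over all listed genes, 78.6% of the higher and 59.2% of the lower ones met it. limma, a linear model with a moderated variance, was fitted to log2(value + 1) of all 1290 genes that met the requirement, with Benjamini-Hochberg adjustment. It called 10 SLC genes higher and 3 lower at an adjusted p under 0.05. Of these, SLC14A1 met the requirement through its knockdown libraries alone, and SLC5A3 and SLC45A3 through their controls alone. For these genes the requirement and the test draw on the same difference, so their calls are no support for a change. The background was high, because the table was selected on these same libraries: 55.7% of the tested genes were called higher and 42% lower, 97.7% in all. At least 2-fold changes on the log2(value + 1) scale were called for 8 higher and 1 lower SLC genes, beside 35.2% and 16.7% of all tested genes. These counts describe the listed genes and are no independent evidence of a change. Without the requirement on level, 11 of the 26 SLC genes were called higher and 13 lower, beside 905 and 882 of all 1877 listed genes. Without control library 3 the 8 SLC genes at least 2-fold higher became 5. With a pseudocount of 5 they became 2.

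**Figure D1:**
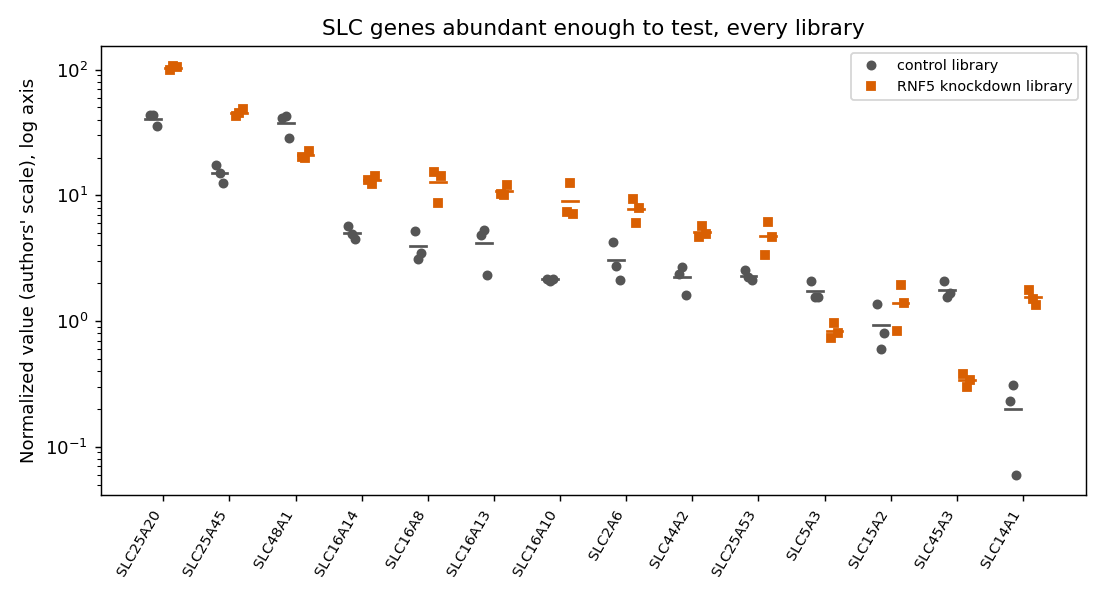
Normalized value (authors' scale, log axis) of the 14 SLC genes abundant enough to test, in each of 3 control libraries (grey circles) and 3 RNF5 knockdown libraries (orange squares), with group means as bars. The groups lie apart in 13 genes, 10 higher and 3 lower in the knockdown, and overlap in SLC15A2. Over all 1877 listed genes, tested or not, the groups lie apart in 93.2%.

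Among mitochondrial carriers, 4 of 64 genes in the substrate list were in the table, beside 6.36% of all protein-coding genes. Of these 4 carriers 3 rose, beside 49.2% of all listed genes. SLC25A20 (ENSG00000178537) encodes the carnitine-acylcarnitine carrier, which brings fatty acyl groups into the matrix for oxidation. Its value was 98.69, 106.24 and 105.46 in knockdown libraries 1 to 3 and 43.38, 43.42 and 35.49 in control libraries 1 to 3. Every knockdown library was more than double any control library. The mean rose 2.54-fold, from 40.8 ± 4.57 to 103 ± 4.15 (SD, n = 3 each), with a log2 fold change of 1.33 (SE 0.16, limma adjusted p = 2.75e-05). In bulk RNA more cells with the transcript and more transcript per cell cannot be told apart, here and below.

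SLC25A45 (ENSG00000162241), another carrier of the family, was at 42.40, 45.32 and 48.54 after knockdown and at 17.47, 15.11 and 12.48 in the controls. The groups were far apart, and the mean rose 3.02-fold, from 15.0 ± 2.50 to 45.4 ± 3.07 (a log2 change of 1.54 with SE 0.18, limma adjusted p = 2.22e-05). SLC25A53 was at 3.34, 6.12 and 4.69 after knockdown against 2.53, 2.23 and 2.14 in the controls. Its knockdown libraries were spread more widely than its controls, and knockdown library 1 lay nearest to them. The mean rose 2.05-fold, which on the log2(value + 1) scale was 0.77 (SE 0.22, limma adjusted p = 0.00466). SLC25A18, a mitochondrial glutamate carrier, was too low to test, with a mean of 0.317 ± 0.101 in the controls and 0.0400 ± 0.0173 after knockdown.

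The SLC16 family had 4 of its 14 annotated members in the table, beside 6.36% of all protein-coding genes. All 4 rose, beside 516 of the 1268 listed protein-coding genes. SLC16A8 (ENSG00000100156) encodes a proton-coupled lactate transporter known from the retinal pigment epithelium. It was at 15.28, 8.64 and 14.18 after knockdown and at 5.21, 3.14 and 3.47 in the controls. Knockdown library 2 was below the other 2 and still above every control. The mean rose 3.22-fold, from 3.94 ± 1.11 to 12.7 ± 3.56 (a log2 change of 1.46 with SE 0.25, limma adjusted p = 0.000222).

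SLC16A14 (ENSG00000163053), of the monocarboxylate transporter family, was at 13.23, 12.32 and 14.32 against 5.69, 4.91 and 4.49. The libraries of each group lay close together, and the mean rose 2.64-fold (a log2 change of 1.25 with SE 0.18, limma adjusted p = 9.43e-05). SLC16A13 (ENSG00000174327), of the same family, was at 10.31, 9.98 and 12.03 after knockdown and at 4.82, 5.31 and 2.32 in the controls, where library 3 was well below the others. Its mean rose 2.60-fold (a log2 change of 1.24 with SE 0.25, limma adjusted p = 0.000601), and without control library 3 the log2 fold change was 0.95. Both genes are grouped here with carboxylate carriers by family. The only other carboxylate carrier in the table was SLC13A5, which takes up citrate with sodium and was too low to test.

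SLC16A10 (ENSG00000112394) carries aromatic amino acids. It was at 7.37, 12.48 and 7.09 after knockdown and at 2.18, 2.10 and 2.15 in the controls. The 3 controls were almost equal, while knockdown library 2 stood above the other 2 of its group. The mean rose 4.19-fold, from 2.14 ± 0.0404 to 8.98 ± 3.03 (a log2 change of 1.63 with SE 0.23, limma adjusted p = 6.46e-05).

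The promoter windows below show the SLC16 genes with an entry in the RefSeq table, which rose together, beside SLC25A20 and SLC48A1, the tested rising and falling SLC genes with the highest means on the authors' scale. Each is the 250 bases before the annotated start, 5′ to 3′, from RefSeq on GRCh38.p14, a build other than the hg19 named in the submitters' processing notes. Capitals mark GC boxes (GGGCGG on either strand), which transcription factors of the SP family bind.
SLC16A8, chr22:38084185-38084434, minus strand: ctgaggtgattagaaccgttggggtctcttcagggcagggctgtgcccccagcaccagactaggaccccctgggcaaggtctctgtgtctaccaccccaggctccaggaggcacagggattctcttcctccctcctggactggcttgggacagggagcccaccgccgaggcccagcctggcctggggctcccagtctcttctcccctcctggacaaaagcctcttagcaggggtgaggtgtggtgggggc
SLC16A10, chr6:111087253-111087502, plus strand: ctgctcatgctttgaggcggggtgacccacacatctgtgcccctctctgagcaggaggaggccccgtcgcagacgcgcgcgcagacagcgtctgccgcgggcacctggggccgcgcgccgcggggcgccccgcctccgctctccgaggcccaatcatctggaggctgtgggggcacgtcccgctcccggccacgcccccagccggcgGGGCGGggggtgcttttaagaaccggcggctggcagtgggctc
SLC16A14, chr2:230068925-230069174, minus strand: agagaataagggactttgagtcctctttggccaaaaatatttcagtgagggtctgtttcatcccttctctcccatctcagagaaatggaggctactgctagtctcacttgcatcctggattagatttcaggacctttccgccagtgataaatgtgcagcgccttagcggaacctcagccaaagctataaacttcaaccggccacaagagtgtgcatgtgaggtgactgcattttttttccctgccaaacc
SLC25A20, chr3:48898883-48899132, minus strand: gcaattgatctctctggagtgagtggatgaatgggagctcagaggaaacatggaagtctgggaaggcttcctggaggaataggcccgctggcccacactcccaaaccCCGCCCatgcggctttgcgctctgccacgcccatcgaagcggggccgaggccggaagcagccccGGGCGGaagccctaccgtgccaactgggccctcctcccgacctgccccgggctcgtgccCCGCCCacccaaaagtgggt
SLC48A1, chr12:47772988-47773237, plus strand: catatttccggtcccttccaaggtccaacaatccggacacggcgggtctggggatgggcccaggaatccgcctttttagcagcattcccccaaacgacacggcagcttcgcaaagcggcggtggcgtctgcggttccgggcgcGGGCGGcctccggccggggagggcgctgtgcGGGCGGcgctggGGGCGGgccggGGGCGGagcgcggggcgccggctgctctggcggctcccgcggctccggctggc

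These windows differ in composition although 4 of the 5 genes moved the same way. The G and C content was 46.8% in SLC16A14, 64.8% in SLC16A8, 66% in SLC25A20, 74% in SLC48A1 and 74.4% in SLC16A10, beside a median of 58% over all 35116 promoters (quartiles 46.4% and 68%). SLC25A20 had 3 GC boxes, SLC16A10 had 1, SLC48A1 had 4, and the windows of SLC16A8 and SLC16A14 had none, whereas 42.6% of all promoters had at least 1. The entries covered 23 of the 26 SLC genes, some with more than 1 start, in 31 promoters. At least 1 GC box was in 16 of the 31, from 13 genes, beside the 42.6% of all promoters. Of the 31 promoters none held the antioxidant response element core TGACNNNGC (10.9% of all promoters) or the E-box CACGTG (6.35%), searched on both strands. The heat shock element pair GAANNTTC (5.78% of all) and the ATF4 response element core TGATGNAA (3.14%) each matched only the window of SLC23A3. A match or its absence describes these letters alone.

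Other amino acid and peptide carriers gave weaker or less separated values. SLC15A2 (ENSG00000163406), which takes up small peptides with protons, was at 0.83, 1.92 and 1.39 after knockdown and at 1.37, 0.60 and 0.80 in the controls. The groups overlapped, and the difference did not pass (a log2 change of 0.30 with SE 0.20, limma adjusted p = 0.154), although the authors' deposited table lists it as higher with an adjusted p of 0.0116. It passed without knockdown library 1 (limma adjusted p = 0.0350) and without control library 1 (0.0443). SLC43A2, a facilitative carrier of large neutral amino acids, was at 2.58, 2.58 and 0.80 against 0.79, 0.44 and 0.26, so that knockdown library 3 and control library 1 almost touched. It reached 1 in only 2 libraries and was not tested. SLC38A8, a sodium-coupled carrier of neutral amino acids, was listed at 0 in all 3 knockdown libraries and at 0.33, 0.42 and 0.08 in the controls. SLC6A17, a carrier of neutral amino acids in synaptic vesicles, had a mean of 0.130 ± 0.0200 in the controls and 0.00667 ± 0.00577 after knockdown.

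Carriers of sugars and polyols went both ways. SLC2A6 (ENSG00000160326), a hexose transporter of intracellular membranes, was at 9.41, 6.05 and 7.94 after knockdown and at 4.24, 2.73 and 2.13 in the controls. The groups did not overlap, and the mean rose 2.57-fold (a log2 change of 1.14 with SE 0.24, limma adjusted p = 0.000802). SLC5A3 (ENSG00000198743), which takes up the osmolyte myo-inositol with sodium, was at 0.73, 0.96 and 0.81 against 2.08, 1.56 and 1.56. All 3 knockdown libraries were below the controls, and the mean fell to 48.1% of the control mean (a log2 change of -0.57 with SE 0.15, limma adjusted p = 0.00263). The requirement on level was met through the controls alone, so this p-value is no support for a change. SLC5A3 shares 273 exon bases, 2.36% of its own, with MRPS6 on the same strand, so reads there cannot be told apart. MRPS6 encodes a mitochondrial ribosomal protein, was listed too, and fell from 30.9 ± 4.22 to 12.2 ± 0.314 (a log2 change of -1.27, limma adjusted p = 6.22e-05).

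SLC45A3 (ENSG00000158715), of a family of proton-coupled sugar carriers and best known as a prostate antigen, was at 0.38, 0.30 and 0.34 after knockdown and at 2.10, 1.54 and 1.66 in the controls. It fell to 19.2% of the control mean (a log2 change of -1.04 with SE 0.13, limma adjusted p = 3.26e-05), the one fall of at least 2-fold on the log2(value + 1) scale. Without control library 1 that value was -0.96, which leaves no SLC gene at least 2-fold lower. SLC45A3 met the requirement on level through its controls alone, so its p-value is no support for a change. Its relative SLC45A2, a protein of pigment granules, was at 0.33, 0.29 and 0.05 in the controls and at 0.04, 0 and 0 after knockdown. SLC2A9, a urate transporter, was at 0.23, 0.77 and 0.50 in the controls and at 0.03, 0.18 and 0.07 after knockdown. Neither was high enough to test.

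Among carriers of vitamins, cofactors, haem and choline, SLC48A1 fell and SLC44A2 rose. SLC48A1 (ENSG00000211584) moves haem out of endosomes and lysosomes into the cytosol. It was at 20.27, 19.85 and 22.44 after knockdown and at 40.94, 43.04 and 28.71 in the controls, so that control library 3 lay between the other controls and the knockdown libraries. The mean fell from 37.6 ± 7.74 to 20.9 ± 1.39, or 55.5% of the control mean (a log2 change of -0.80 with SE 0.19, limma adjusted p = 0.00192). SLC44A2 (ENSG00000129353), a choline transporter-like protein, was at 4.65, 5.72 and 4.89 against 2.38, 2.71 and 1.61. The groups did not overlap, and the mean rose 2.28-fold (a log2 change of 0.92 with SE 0.20, limma adjusted p = 0.00101). SLC23A3, a relative of the ascorbate transporters, was not tested, and its control library 2 (0.73) lay below knockdown library 3 (0.92). In GENCODE 47.9% of its exon bases are shared with another gene model on the same strand, AC068946.1, so its level is uncertain.

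SLC14A1 (ENSG00000141469), the urea transporter that carries the Kidd blood group antigen, was low in both groups. It was at 1.77, 1.51 and 1.34 after knockdown and at 0.23, 0.31 and 0.06 in the controls. Every knockdown library was above every control, and the mean rose 7.70-fold from 0.200 ± 0.128 to 1.54 ± 0.217, the largest ratio of means among the SLC genes that rose. On the log2(value + 1) scale, which understates low genes, this was 1.08 (SE 0.13, limma adjusted p = 2.43e-05). SLC14A1 met the requirement on level through its knockdown libraries alone, so this p-value is no support for a change.

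**Figure D2:**
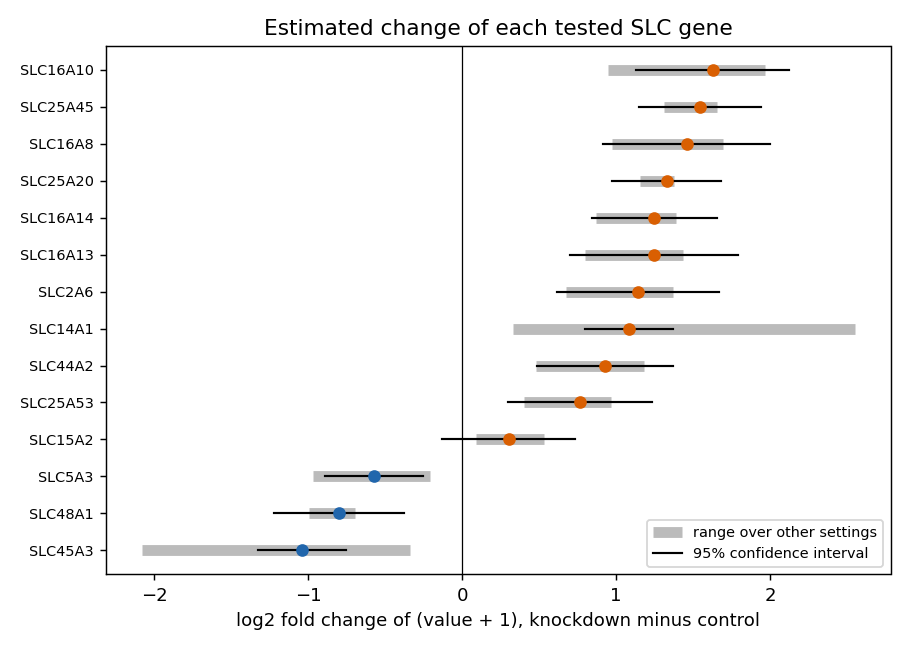
Log2 fold change of (value + 1), knockdown minus control, of the 14 tested SLC genes, with orange points above 0 and blue points below, black lines for 95% confidence intervals and grey bars for the range over the other settings tried. All estimates keep their sign over those settings, and the interval of SLC15A2 alone includes 0.

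Of all genes listed as lower, 59.2% were high enough to test. The 12 SLC genes that were too low to test include 11 of the 14 that the authors' deposited table lists as lower. Besides those described above, they were SLC6A13, a transporter of GABA and taurine, the anion exchanger SLC26A7, SLC22A14 of the organic ion family, and SLCO2B1, which takes up organic anions. SLC6A13 was at 0.76, 1.89 and 1 in the controls and at 0.73, 0.47 and 0.28 after knockdown, where library 1 almost reached the lowest control. SLC26A7 had a mean of 0.49 ± 0.12 in the controls and 0.147 ± 0.101 after knockdown, with no overlap. SLC22A14 was at 0.40, 0.45 and 0.48 in the controls and at 0.03, 0 and 0.48 after knockdown, so knockdown library 3 equalled the highest control. SLCO2B1 was at 0.52, 0.19 and 0.25 against 0.04, 0 and 0.20, and its groups overlapped as well. SLC13A5, described above by its role, was at 0.66, 0.80 and 0.38 against 0.40, 0.10 and 0.11. Over all 26 SLC genes the 2 groups did not overlap in 21 (11 higher and 10 lower) and overlapped in 5. That is 80.8% apart, beside 93.2% of all 1877 listed genes (47.7% higher and 45.5% lower).

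**Figure D3:**
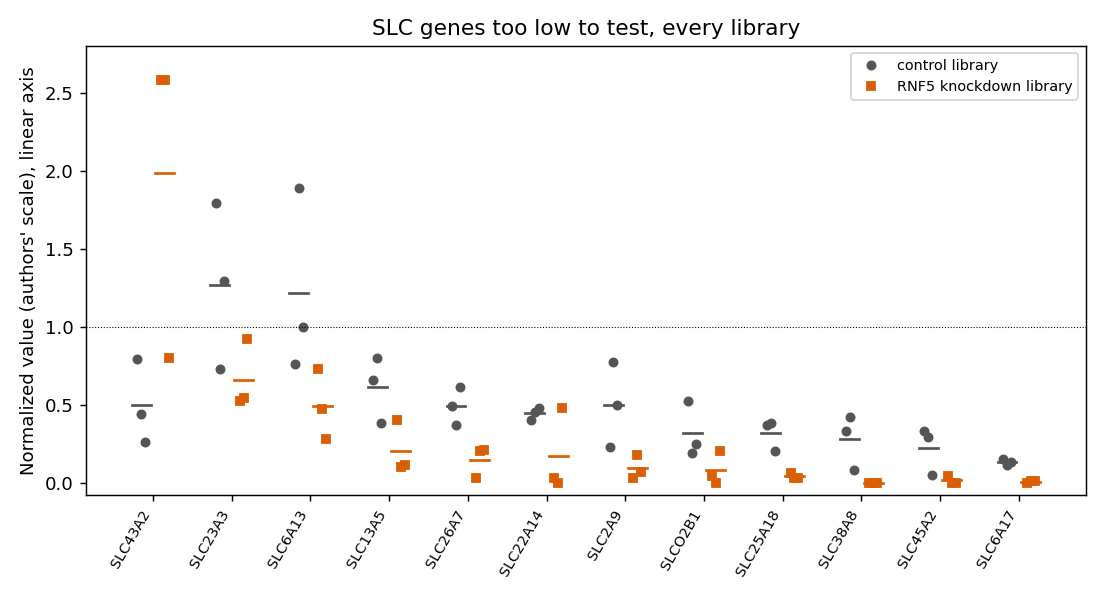
Normalized value (authors' scale, linear axis) of the 12 SLC genes too low to test, in each control library (grey circles) and each RNF5 knockdown library (orange squares), with group means as bars and a dotted line at 1. All but SLC43A2 have the higher mean in the controls, and SLC22A14 has 1 knockdown library at the level of its controls.

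The fold changes of the authors' deposited table and the library values of the same table did not match equally well for all SLC genes. None of the 14 tested SLC genes had a log2 ratio of library means that was more than 0.5 away from the authors' log2 fold change, whereas 7 of the 11 untested ones with a ratio did (5.37% of tested and 22.6% of untested genes over the whole list). SLC22A14 had -3.53 in the authors' deposited table and -1.38 from its library means. SLCO2B1 had -4.01 in the authors' deposited table and -2.0 from the means, and SLC6A13 had -2.65 and -1.30 in the same order. In each of these 3 genes the authors' value was the stronger fall. SLC43A2, listed as higher, had 1.22 in the authors' deposited table and 2.0 from its means, so its ratio of means also lay above the authors' value and gave the stronger rise. Over 431 listed genes with both means at least 5 the ratio of means exceeded the authors' value by a median of 0.173, and all changes should be read against that shift. With it removed, 10 SLC genes were called higher and 3 lower, beside 716 and 556 of all 1290 tested genes. The SLC genes at least 2-fold higher numbered 6 in place of 8.

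**Figure D4:**
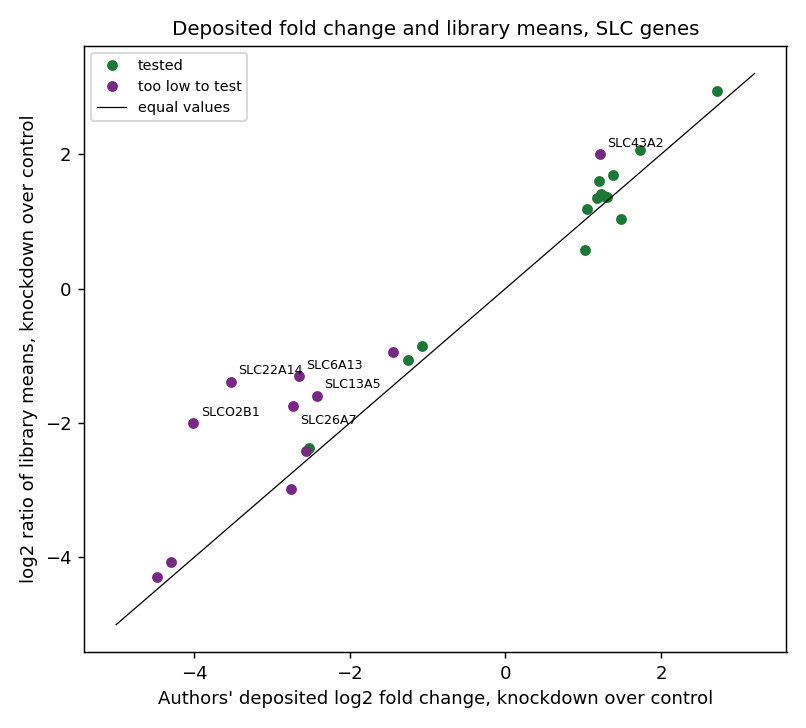
Log2 ratio of library means against the authors' deposited log2 fold change, knockdown over control, for the 25 SLC genes with a knockdown mean above 0 (green, tested; purple, too low to test), with a line of equal values. SLCO2B1, SLC22A14 and SLC6A13 lie farthest above the line.

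Other transport genes were taken from lists of pumps, channels and carrier partners. The table held 6.36% of all protein-coding genes, and 49.2% of all its genes were listed as higher. Counts below and in the next paragraph are to be read beside these shares. Of 38 genes of P-type ATPases, 4 were in the table and all were tested, 3 rising and 1 falling. ATP2A3, a calcium pump of the endoplasmic reticulum, rose from 12.3 ± 3.98 to 52.4 ± 3.15 (a log2 change of 2.06, limma adjusted p = 1.75e-05). ATP13A2, a polyamine pump of lysosomes, rose from 3.56 ± 1.25 to 10.2 ± 1.55 (a log2 change of 1.33, limma adjusted p = 0.000326). Of 44 genes in the list of ABC transporters, 4 were in the table and 2 were tested. ABCC2, an exporter of conjugated organic anions, fell from 2.47 ± 0.880 to 0.327 ± 0.161 (a log2 change of -1.36, limma adjusted p = 6.06e-05), and ABCA2, a lipid transporter of lysosomes, rose from 0.567 ± 0.304 to 1.35 ± 0.340 (0.60, limma adjusted p = 0.00508). ABCC2 met the requirement on level through its controls alone, and ABCA2 through its knockdown libraries alone. The p-values of ABCC2 and ABCA2 are therefore no support for a change. None of 23 V-type ATPase subunits and 12 aquaporins was listed.

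Carrier partners and mitochondrial transport proteins outside the SLC names moved as well. Of 14 partners and regulators, TXNIP and ARRDC4, arrestins that restrain glucose uptake at the cell surface, were listed and rose (log2 fold changes 3.87 and 1.86, limma adjusted p = 9.09e-08 and 6.63e-06). ARRDC4 met the requirement on level through its knockdown libraries alone, so its p-value is no support for a change. Of 10 genes of mitochondrial pyruvate and calcium transport, 2 were listed and both fell. MPC1, a subunit of the pyruvate carrier, fell from 212 ± 27.2 to 115 ± 6.46 (a log2 change of -0.87, limma adjusted p = 0.000308). MCU, the pore of the calcium uniporter, fell from 18.9 ± 2.83 to 9.18 ± 0.597 (-0.96, limma adjusted p = 0.000483). The 3 tested SLC25 carriers rose in the same libraries. Of the SLC rows left out, SLC35B4, a nucleotide sugar carrier, was at 9.67, 11.74 and 11.53 after knockdown against 5.43, 3.25 and 2.71 and rose (a log2 change of 1.36, limma adjusted p = 0.000222), while SLC3A2 and SLC7A11 fell (-1.23 and -0.88, limma adjusted p = 1.48e-05 and 0.00170).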

How the data were processed

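The submitters' processing notes name Bowtie 0.12.2 and hg19 without saying for which step; how reads were counted, normalized and tested is not given in these sources. For 1877 selected genes the authors deposited a normalized signal per library with 2 decimals, its group means, a fold ratio of knockdown over control, the log2 of that ratio, and a p-value, raw and adjusted. The signal deposited by the authors is not whole reads, so depth is unknown and counting intervals cannot be given. Whether it is per length is not stated. Means were used to choose which genes to describe and to set the levels of genes listed as higher beside those listed as lower. Those levels may depend on gene length and cannot be read as abundance.

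Members, substrate groups and lists were chosen with earlier results of these data known, and urea as a group was added after the table was seen. limma 3.58.1 in R 4.3.3 (mean-variance trend, group alone) was fitted to log2(value + 1) of 1290 genes with at least 1 in 3 or more libraries, which leaves out 587. The script was checked on simulated data. Full statistics were planned for tested SLC genes that were among the 12 highest means or the 8 largest changes. SLC45A3 met neither and was described after its values were seen, as were the library values of low genes, MRPS6, SLC35B4, SLC3A2 and SLC7A11. Of each other transport list up to 2 genes with the highest mean were named. Exon lengths and overlaps came from GENCODE release 29 by identifier (91.7% of IDs matched), and promoters from RefSeq by symbol. Python 3.11.15 was used for the rest.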

Additional observations from a re-analysis of the deposited data

How the results depend on the processing

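All 14 tested SLC genes kept the sign of their change over the 13 or 14 alternatives that gave them a value (6 had a mean under 5 and so no value under that filter), and 13 of them also their call; of 190 such values, the 2 exceptions were SLC15A2 without knockdown library 1 (0.48) and without control library 1 (0.46), where it passed. Without a filter on low values 882 listed genes were called lower in place of 542, and 13 SLC genes in place of 3. With a mean of at least 5 required, fewer genes were tested, and 591 were called (314 higher and 277 lower, against 1260, 718 and 542), with 1 SLC gene lower and 0 at least 2-fold lower. With a pseudocount of 5, 2 SLC genes were at least 2-fold higher and 0 lower, a scale that shrinks low genes by construction. Leaving out 1 library gave 5 to 9 SLC genes at least 2-fold higher (5 without control library 3) and 0 to 1 lower (0 without control library 1). A smooth curve of log2 fold change against exon length was also subtracted, a setting chosen after seeing the data. It left 10 SLC genes higher and 3 lower, beside 621 and 531 of 1187 listed genes. The curve was not centred, so an overall shift was subtracted with it, and the estimate of every tested SLC gene moved down. SLC5A3 (11576 exon bases) went from -0.57 to -0.90 and SLC16A10 (11237) from 1.63 to 1.30. The move was smaller in short genes, with SLC16A13 (2087) going from 1.24 to 1.14 and SLC25A20 (1982) from 1.33 to 1.22. Fold change and length had a Spearman correlation of 0.0023, which measures only a steady rise or fall. How much of the shift went with length was not tested. The replicate block called 1272 genes (721 higher and 551 lower), with 10 SLC genes higher and 3 lower. Same-numbered libraries did not deviate together (r = -0.16, -0.071 and -0.082), and none correlated best with its own number. With 3 libraries per group, taken about their group mean, these values cannot decide whether same-numbered libraries shared a culture or batch. Depth is unknown, and low genes rest on values near the 0.01 step of the table.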

Other observations

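SLC14A1 overlaps, without sharing exon bases, an unnamed antisense gene (ENSG00000267193) on the opposite strand that was also listed. That gene was at 0.07, 0.03 and 0.04 in the knockdown libraries and at 0.41, 0.38 and 0.35 in the control libraries, while SLC14A1 was higher after knockdown. SLC9A3-AS1, an antisense RNA, was at 38.51, 38.22 and 34.90 after knockdown and at 16.50, 17.53 and 9.21 in the controls, and its sense gene has no value here. The pseudogene SLC2A3P1 was at 14.73, 14.22 and 10.94 against 8.14, 7.20 and 2.24, and its reads can come from the glucose transporter gene SLC2A3, which has no value here. All 3 rows were chosen after their values were seen.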
